A study of Saccharomyces cerevisiae x Saccharomyces paradoxus and Saccharomyces cerevisiae and Saccharomyces paradoxus with 10 samples.

Results

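The post-squalene steps of ergosterol synthesis were followed in Saccharomyces cerevisiae, in its sister yeast Saccharomyces paradoxus and in a hybrid between them, through ERG1, ERG11, ERG25, ERG26, ERG27, ERG28, ERG6, ERG2, ERG3 and ERG5. Members were chosen by standard gene name, and 9 of the 10 had an entry among the 4637 genes of the table, while ERG26 was not analysed here. Levels of poly-A mRNA and of ribosome-protected fragments (RPF, pieces of mRNA shielded from nuclease by a translating ribosome) had been measured separately for the S. cerevisiae and the S. paradoxus copy of every gene. The hybrid was a diploid made from the S. cerevisiae strain BY4176, given as MAT-alpha with lys2 and ura::KAN, and the S. paradoxus strain CBS432, given as MATa with ura::HYG. The S. cerevisiae parent was haploid BY4176 and the S. paradoxus parent diploid CBS432, but the mixed mRNA library is described as haploid for both. All cultures were started from single colonies and grown to log phase in YPD, a rich glucose medium. The 10 samples formed 4 settings of 2 replicates each, namely parental mRNA, hybrid mRNA, parental RPF and hybrid RPF, which gave 16 columns of coverage, 8 for each species.

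Ergosterol is the main sterol of yeast membranes, where it takes the place that cholesterol has in animals. Squalene, an open-chain intermediate, is oxidised and closed into a ring, and the ring is then demethylated, methylated on its side chain, isomerised and desaturated. Several of these steps consume molecular oxygen, and some of the enzymes hold heme, whose own synthesis needs oxygen too. Transcription of the pathway responds to sterol supply through the factors Upc2 and Ecm22, which bind a short sterol response element.

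Among the 9 genes, 5 encode enzymes that use oxygen. They are ERG1 (squalene epoxidase), ERG11 (lanosterol demethylase, a heme protein), ERG25 (a sterol methyl oxidase with non-heme iron), ERG3 (a sterol desaturase with non-heme iron) and ERG5 (a sterol desaturase that is a heme protein). The other 4 encode proteins that do not use oxygen. ERG27 encodes a keto reductase, ERG28 a membrane scaffold that holds the demethylation enzymes together, ERG6 a methyltransferase and ERG2 an isomerase. In the R64 annotation of S. cerevisiae the coding regions lie on 5 chromosomes. ERG1 (YGR175C) spans 846933 to 848423 and ERG25 (YGR060W) 610564 to 611493 on chromosome VII. ERG27 (YLR100W) spans 341810 to 342853 and ERG3 (YLR056W) 253861 to 254958 on chromosome XII. ERG6 (YML008C, 251839 to 252990), ERG2 (YMR202W, 667537 to 668205) and ERG5 (YMR015C, 300869 to 302485) lie on chromosome XIII. ERG11 (YHR007C) spans 120091 to 121683 on chromosome VIII and ERG28 (YER044C) 237570 to 238016 on chromosome V.

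The sterol response element was searched in the 600 bases before each start codon of the S. cerevisiae genome, on both strands, as TCGTATA (the A form) and as TCGTTTA (the T form). The A form was found before 6 of the 9 genes and before 7.91% of 4401 genes with a matched name. The T form was also found before 6 of the 9, and before 442 of the 4401 genes. Every one of the 9 genes had at least 1 of these forms, against 746 of 4401 genes (17%). A match is a run of letters and was not tested as a binding site, and S. paradoxus sequence was not used here. The windows below are shown because they hold these letters in front of the genes described. They are all A-form matches, and the T-form matches of the 3 genes without an A form. Each is written 5′ to 3′ on the strand of the gene, from the R64 genome, and capitals mark the element, which reads TATACGA or TAAACGA where it lies on the opposite strand. None of these matches shares a base with another or lies in a neighbouring coding region.
ERG1, chrVII:848788-848816, minus strand, 376 bases before the start codon: gtagcgggcctTCGTATAgctcggccgag
ERG25, chrVII:610070-610098, plus strand, 477 bases before the start codon: actgcctccctTCGTATAcgggacacaga
ERG25, chrVII:610090-610118, plus strand, 457 bases before the start codon: ggacacagagaTCGTATAcggtaaacgac
ERG3, chrXII:253524-253552, plus strand, 320 bases before the start codon: caaccggggtgTATACGAggccgatggct
ERG3, chrXII:253564-253592, plus strand, 280 bases before the start codon: aaaattcaggcTCGTATAagtggcacaat
ERG28, chrV:238277-238305, minus strand, 272 bases before the start codon: taacctaatctTATACGAactgaattaaa
ERG6, chrXIII:253405-253433, minus strand, 426 bases before the start codon: agccccgatctTCGTATAtggtacctcgt
ERG2, chrXIII:667341-667369, plus strand, 179 bases before the start codon: aaccacggcccTCGTATAagccgcaagga
ERG11, chrVIII:122172-122200, minus strand, 500 bases before the start codon: agcgctggcccTAAACGAaacgaaacgaa
ERG27, chrXII:341683-341711, plus strand, 110 bases before the start codon: tttatttatggTCGTTTAacgaaagaacg
ERG5, chrXIII:302931-302959, minus strand, 457 bases before the start codon: cctggatttttTAAACGAgaaactcgtaa
ERG5, chrXIII:302840-302868, minus strand, 366 bases before the start codon: gaaggtttcccTCGTTTAagtctgcgaag

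**Figure D1:**
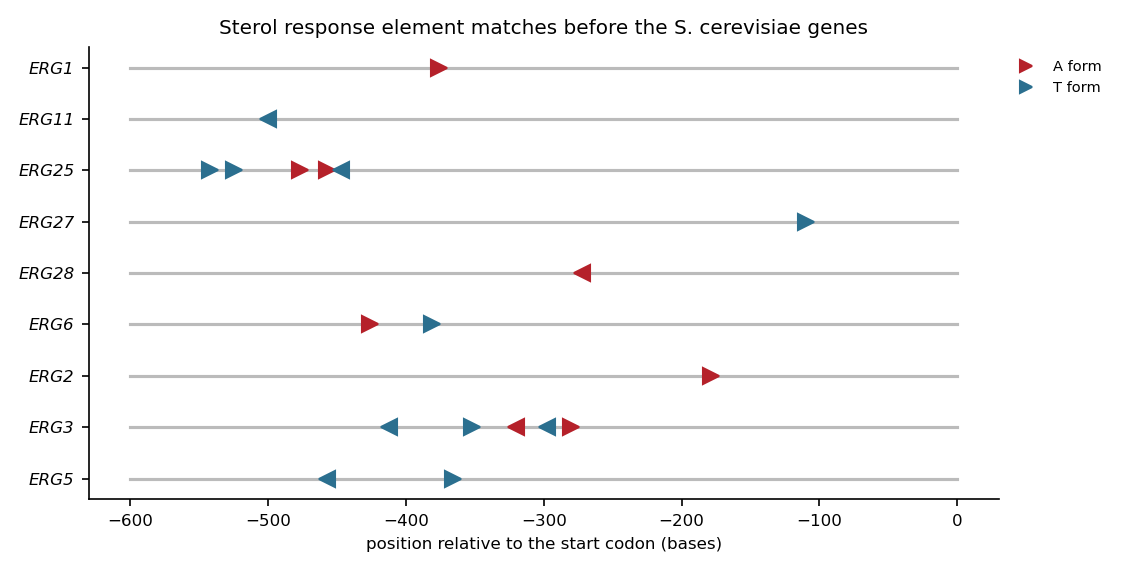
Positions of all matches to the sterol response element in the 600 bases before the start codon (at 0, in bases) of the 9 S. cerevisiae genes. Red triangles are the A form, blue triangles the T form, and a triangle pointing left is a match on the opposite strand; ERG25 and ERG3 hold the most matches.

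The authors' deposited table gives sequence divergence between the species as a percentage. The coding regions of the 9 genes differed by between 3.77 (ERG25) and 8.7 (ERG27), against a median of 10.1 over 4637 genes. Their promoters differed by between 5.03 (ERG27) and 19.4 (ERG3), against a median of 20.5 over the 3604 genes with a value. In that table ERG11, ERG28, ERG2 and ERG5 are marked as having a TATA box, as are 14.3% of 3467 genes with a value. None of the 9 carries the authors' mark for genes that respond to ploidy or mating type.

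The values are total base coverage over the bases of a gene that could be assigned to a species, given here in ppm, the covered bases of a gene per Mb of the column total. Column totals ran from 60.55 to 166.7 Mb. The authors had scaled the S. paradoxus coverage of each replicate to the S. cerevisiae total, so no overall difference between species remains. The labels could be checked on URA3, which is replaced in both strains of the cross and stood at 164 to 248 ppm in the 8 parental columns and at 3.99 to 12.5 ppm in the 8 hybrid columns. Parents and hybrid were grown as separate cultures, differed in URA3, and the parents also differed in ploidy and mating type. In every parental value below, culture, ploidy and mating type cannot be told apart from species. In every trans and hybrid-against-parent value, these and URA3 cannot be told apart from species or from the hybrid state.

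All 9 genes were well covered. Per kb of assignable bases and averaged over the 16 columns, ERG25 was highest at 1998 ppm, followed by ERG2 (1859.8), ERG6 (1428), ERG11 (1364), ERG3 (1194), ERG1 (1166), ERG28 (826), ERG27 (507) and ERG5 (464). Compared with the same mean of all tested genes these levels lay between the 86.88th percentile, for ERG5, and the 97.8th, for ERG25. The SD over columns, which mixes species, assay and background, ran from 128 for ERG27 to 774 for ERG25. Each step between neighbours in this order was smaller than the SD of the higher gene. The ERG25 level rests on only 210 assignable bases, 22.6% of its coding region, while the other genes had between 56.1% and 71.9%.

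In mRNA the 9 genes together were more abundant in the S. paradoxus parent than anywhere else. Their summed coverage was 7779.9 and 7715 ppm in that parent, and 4761 and 4583 ppm for the same alleles in the hybrid. In S. cerevisiae the sums were 5278 and 5435 ppm in the parent and 5391 and 5549 ppm in the hybrid. The excess of the S. paradoxus parent over the S. cerevisiae parent was thus not seen between the alleles of the hybrid, where the order of the sums was the opposite.

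**Figure D2:**
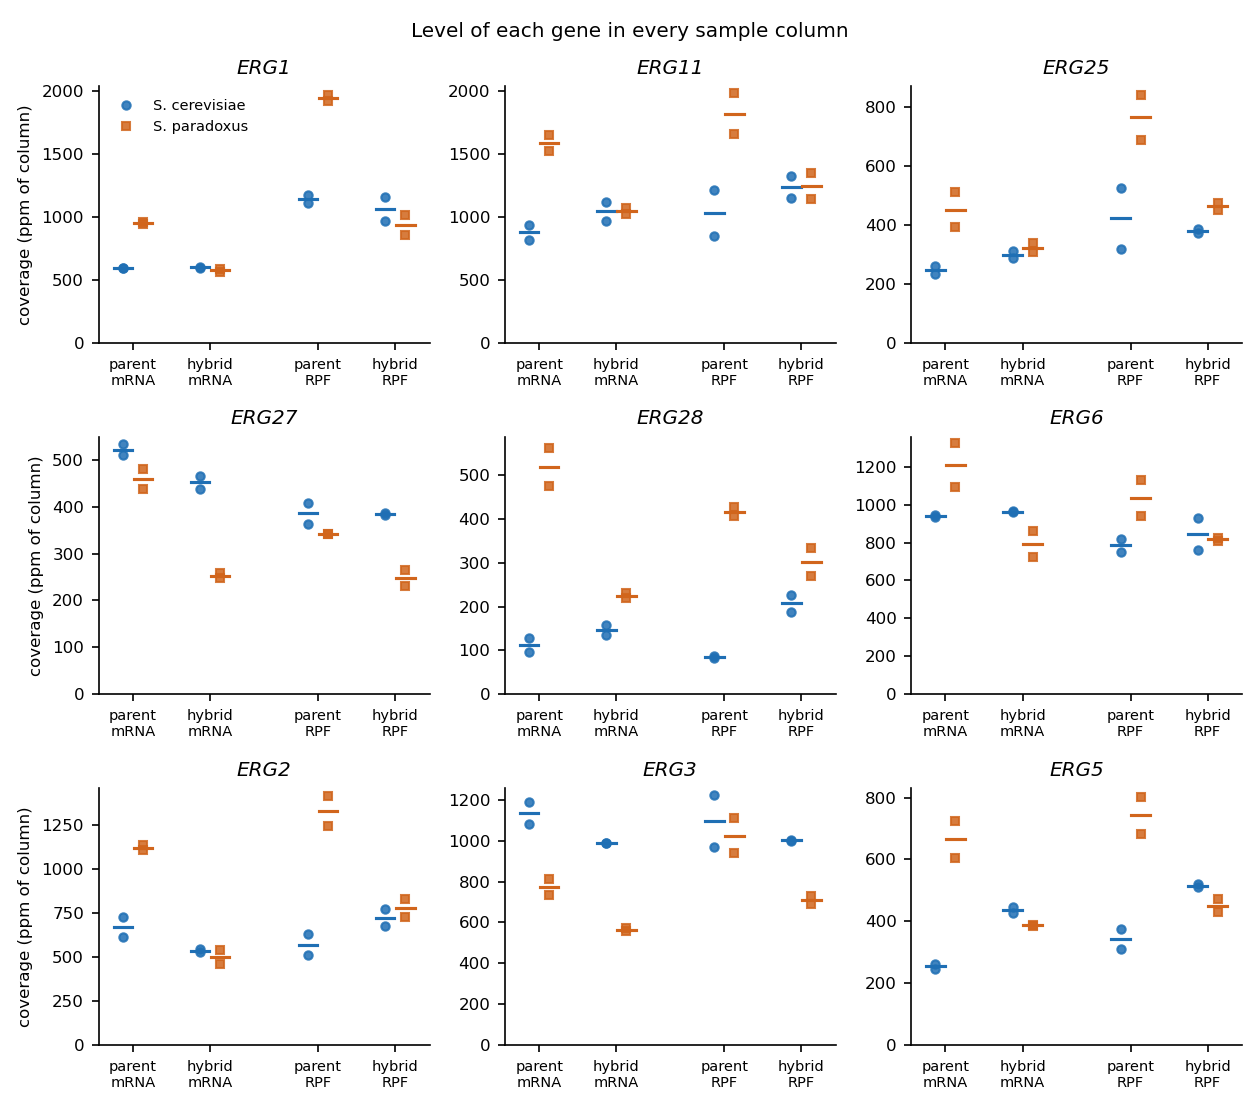
Coverage of each gene in ppm of the column total (vertical axes, each starting at 0) for parents and hybrid, in mRNA and in ribosome-protected fragments (RPF). Points and squares are single replicates of S. cerevisiae and S. paradoxus, and lines are means of 2; in mRNA and in RPF the hybrid S. paradoxus squares lie under the parental ones for all 9 genes.

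Differences were tested with limma on log2 ratios, always S. cerevisiae divided by S. paradoxus, with Benjamini-Hochberg adjustment over 4544 genes and calls at an adjusted p under 0.05. An allele difference in the hybrid, where both alleles share a cell, is called cis. The parental difference minus the hybrid difference is called trans. Errors are standard errors with n = 2 replicates per setting. Parental and trans values share the parental libraries, and cis and trans values share the hybrid libraries.

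Between the parents, mRNA was lower in S. cerevisiae for 7 of the 9 genes and higher for 1, ERG3, where 27.8% of all genes tested were called lower and 30.8% higher. The alleles of the hybrid gave another picture. There ERG27, ERG3 and ERG6 were higher from the S. cerevisiae allele, where 17.8% of all genes were, and ERG28 was lower, where 20.2% were. In trans, 8 of 9 genes were lower for S. cerevisiae, where 16.8% of all genes were, and all but ERG3 passed the test. The median trans difference of the 9 genes was -0.76 on the log2 scale, with all 9 values below 0, against a median of 0.05 over all genes, of which 45.8% were below 0. The trans difference was larger in size than the cis difference for 7 of the 9 genes, and for 59.5% of all genes.

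The early oxygen-using steps, ERG1 and ERG11, had matched alleles in the hybrid and unequal parents. ERG1 mRNA stood at 592 and 596 ppm in the S. cerevisiae parent and at 603 and 596 ppm for its allele in the hybrid. In S. paradoxus it stood at 957 and 946 ppm in the parent and at 559.8 and 589.6 ppm in the hybrid. Only the S. paradoxus parent was apart, and the other columns lay between 559.8 and 603 ppm. ERG1 was accordingly 1.60-fold lower in the S. cerevisiae parent (log2 -0.68 ± 0.09, adjusted p = 2.3e-06), with 0.06 ± 0.08 in cis and -0.74 ± 0.12 in trans (adjusted p = 8.2e-05).

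ERG11, whose product is the target of azole antifungals, had 941 and 817 ppm in the S. cerevisiae parent and 971 and 1119.8 ppm from that allele in the hybrid. Its S. paradoxus values were 1655 and 1523 ppm in the parent and 1027 and 1076 ppm in the hybrid. Again the S. paradoxus parent lay above every other column. The parental difference was -0.86 ± 0.10 (adjusted p = 9.5e-07), the cis difference -0.01 ± 0.09 and the trans difference -0.84 ± 0.14 (adjusted p = 0.00011).

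ERG25 acts after ERG11, in the complex that removes methyl groups from the ring. Its mRNA was at 233 and 261 ppm in the S. cerevisiae parent and at 287 and 314 ppm in the hybrid. The S. paradoxus values were 511 and 395 ppm in the parent and 340.2 and 308 ppm in the hybrid. The alleles of the hybrid overlapped and the parents did not. The trans difference of -0.76 ± 0.18 (adjusted p = 0.0029) was less secure than that of the other called genes. Without hybrid mRNA replicate 2 it was -0.62 (adjusted p = 0.060), without parental mRNA replicate 1 it was -0.49 (adjusted p = 0.058), and with a spread shared by all settings its adjusted p was 0.11.

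ERG28 and ERG27, whose products work in the same demethylation complex, had the largest cis differences of the group together with ERG3, in opposite directions. ERG28 mRNA stood at 95.2 and 127 ppm in the S. cerevisiae parent, and at 475 and 563 ppm in the S. paradoxus parent. In the hybrid the S. cerevisiae allele had 134 and 159 ppm and the S. paradoxus allele 230.2 and 219 ppm. The groups did not overlap in either comparison, and the gap narrowed in the hybrid from both sides. ERG28 was 4.68-fold lower in the S. cerevisiae parent (log2 -2.23 ± 0.11, adjusted p = 3.1e-12). In cis it was -0.62 ± 0.10 (adjusted p = 7.1e-05) and in trans -1.61 ± 0.15 (adjusted p = 8.7e-08), so both parts had the same sign.

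For ERG27 both parts were called with opposite signs. The S. cerevisiae values were 510.1 and 534 ppm in the parent and 467 and 438 ppm in the hybrid. The S. paradoxus values were 439 and 481 ppm in the parent and 259 and 248 ppm in the hybrid. The parents lay close together without overlap, and the alleles of the hybrid were far apart. The cis difference was 0.83 ± 0.08 (adjusted p = 4.2e-07), the trans difference -0.65 ± 0.13 (adjusted p = 0.00052), and the parental difference that they add up to was 0.18 ± 0.09 (adjusted p = 0.095).

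ERG6 and ERG2 encode the methyltransferase and the isomerase that follow. ERG6 had 948 and 934 ppm in the S. cerevisiae parent, 967 and 960.1 ppm from that allele in the hybrid, 1095 and 1327 ppm in the S. paradoxus parent, and 862 and 724 ppm from its allele. The order of the species thus turned between parents (-0.36 ± 0.10, adjusted p = 0.0058) and hybrid alleles (0.29 ± 0.09, adjusted p = 0.022). The cis call did not hold without hybrid mRNA replicate 2 (0.17, adjusted p = 0.44), nor the parental call without parental mRNA replicate 2 (-0.21, adjusted p = 0.20). The trans difference was -0.64 ± 0.14 (adjusted p = 0.0014), and with a spread shared by all settings its adjusted p was 0.053.

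ERG2 had 612 and 727 ppm in the S. cerevisiae parent, and 546 and 526 ppm from that allele in the hybrid. In S. paradoxus it had 1109.8 and 1137 ppm in the parent and 539 and 459 ppm in the hybrid. The alleles of the hybrid overlapped, and the S. paradoxus parent lay above every other column. ERG2 was at -0.75 ± 0.10 between the parents (adjusted p = 3.8e-06), 0.11 ± 0.09 in cis and -0.86 ± 0.14 in trans (adjusted p = 7.6e-05).

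The late desaturase genes ERG3 and ERG5 differed between the parents in opposite directions. ERG3 had 1083 and 1192 ppm in the S. cerevisiae parent and 988 and 990.2 ppm from that allele in the hybrid, with 813 and 736 ppm in the S. paradoxus parent and 559 and 572 ppm from its allele. It was the only gene of the 9 that passed the test as higher in S. cerevisiae both between parents and in the hybrid. ERG3 was at 0.55 ± 0.10 between the parents (adjusted p = 0.00011) and at 0.81 ± 0.09 in cis (adjusted p = 1.6e-06), and its trans value of -0.25 ± 0.14 was not called (adjusted p = 0.16).

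ERG5 had 263 and 247 ppm in the S. cerevisiae parent, 428 and 447 ppm from the same allele in the hybrid, 725 and 606 ppm in the S. paradoxus parent, and 385 and 388 ppm from its hybrid allele. The S. cerevisiae level was higher in the hybrid and the S. paradoxus level lower, so that the order of the species turned. The parents differed 2.60-fold (-1.38 ± 0.10, adjusted p = 6.9e-10). In cis ERG5 was at 0.18 ± 0.09 (adjusted p = 0.13), and in trans at -1.56 ± 0.13 (adjusted p = 3.0e-08), close to the trans value of ERG28.

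**Figure D3:**
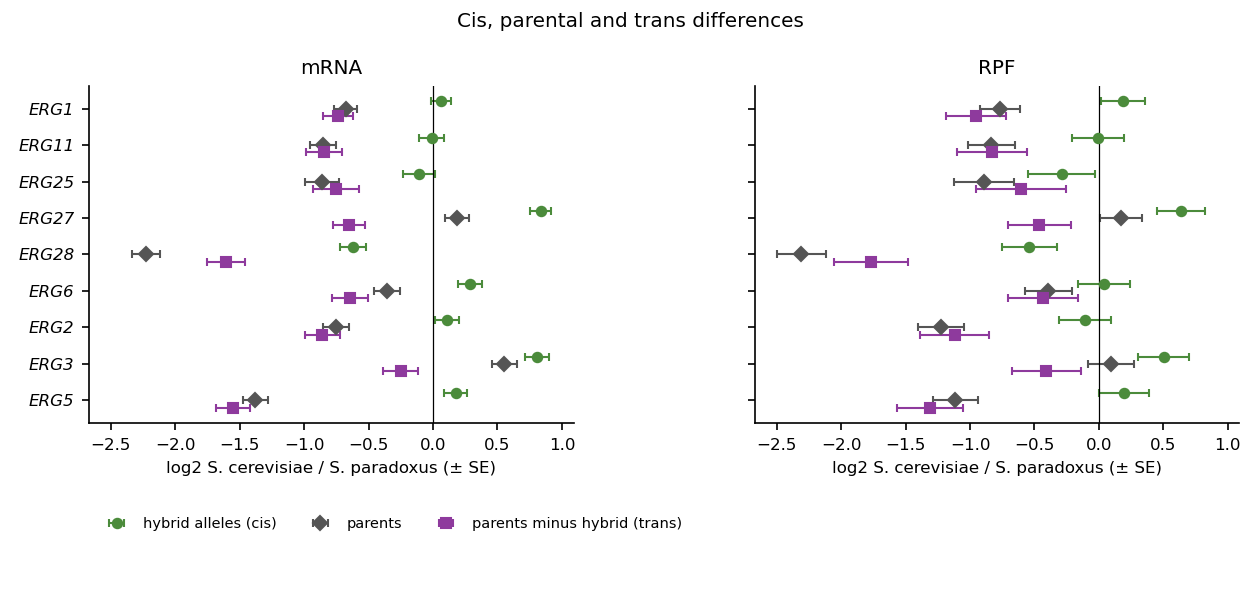
Log2 of S. cerevisiae over S. paradoxus for the 9 genes in mRNA and RPF, with horizontal bars of 1 standard error. Green points are hybrid alleles (cis), grey diamonds the parents, and purple squares the parental minus the hybrid value (trans); all trans squares lie left of 0 in both assays, while the cis points lie on both sides.

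Against these values, each species could be compared with itself between hybrid and parent. These contrasts use the same libraries as the trans values and are not separate evidence. For S. paradoxus the mRNA of all 9 genes was lower in the hybrid, where 16.4% of all genes were called lower. Both hybrid replicates lay under both parental replicates for all 9 genes, as they did for 37.2% of all genes. The log2 differences ran from -0.45 ± 0.11 for ERG3 (adjusted p = 0.0047) to -1.20 ± 0.12 for ERG28 (adjusted p = 6.5e-07), a 2.30-fold difference. ERG2 was next at -1.17 ± 0.11, and the median of the 9 genes was -0.73, against -0.05 over all genes. The ERG25 call at -0.47 ± 0.13 was lost without hybrid mRNA replicate 2 (-0.40, adjusted p = 0.093) and without parental mRNA replicate 1 (-0.29, adjusted p = 0.13).

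For S. cerevisiae the mRNA moved in both directions. ERG5 was 1.72-fold higher in the hybrid (0.78 ± 0.12, adjusted p = 1.2e-05) and ERG28 was higher by 0.40 ± 0.15 (adjusted p = 0.032), where 20.7% of all genes were called higher. ERG2 was lower by the test (-0.31 ± 0.12, adjusted p = 0.038), where 29.8% were. The other 6 genes ran from -0.21 ± 0.11 for ERG27 to 0.28 ± 0.14 for ERG25 and were not called. Scaling mattered here, since the median of all genes was -0.13 with column totals and -0.014 with median-of-ratios scaling, and the share of calls that were higher was 41% and 54%. With median-of-ratios scaling ERG2 was not called (-0.20, adjusted p = 0.19), while ERG11 (0.37, adjusted p = 0.026) and ERG25 (0.40, adjusted p = 0.019) were called higher. The ERG2 call was also lost with a spread shared by all settings (adjusted p = 0.13), in the fit within the assay (adjusted p = 0.066), and without 5 of the 8 replicates. Its weakest value was -0.19 without parental mRNA replicate 2 (adjusted p = 0.25). The ERG28 call was lost with the shared spread (adjusted p = 0.12), within the assay (adjusted p = 0.051), without hybrid mRNA replicate 2 (0.28, adjusted p = 0.25) and without parental mRNA replicate 1 (0.20, adjusted p = 0.32). ERG5 stayed called without any single replicate and under both scalings.

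**Figure D4:**
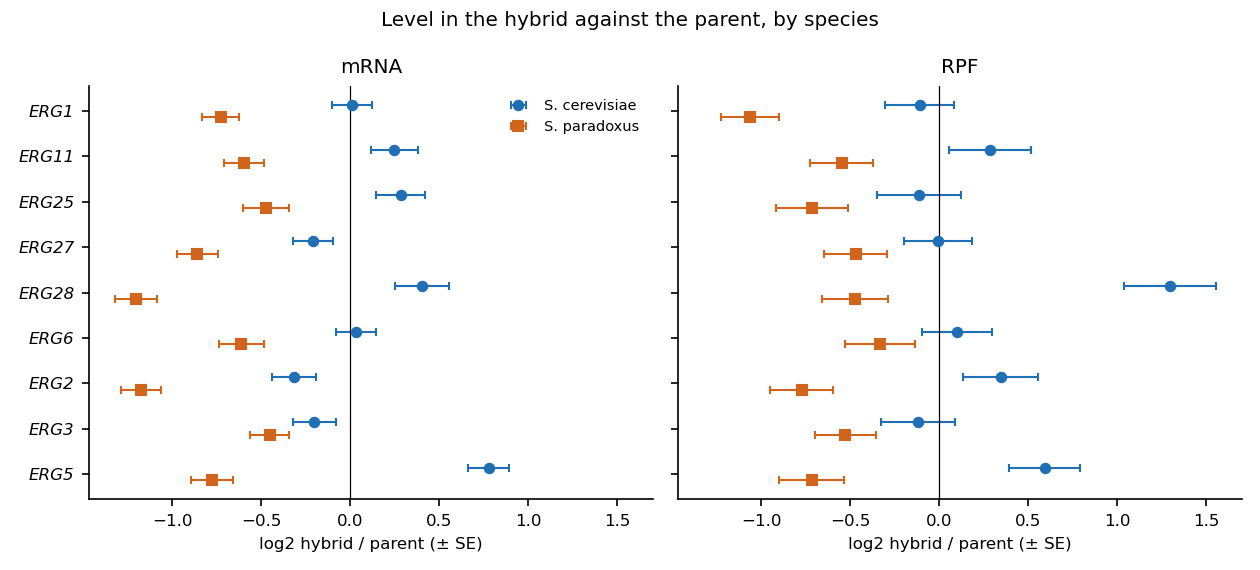
Log2 of the hybrid level over the parental level for the S. cerevisiae (circles) and S. paradoxus (squares) copy of each gene, in mRNA and RPF, with bars of 1 standard error. All S. paradoxus squares lie left of 0, and the S. cerevisiae circles scatter around it, with ERG28 in RPF farthest right at 1.30.

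In ribosome-protected fragments the S. paradoxus parent was again the highest, and the S. cerevisiae parent overlapped both sets of hybrid alleles, with wide replicate gaps in the parents. The summed RPF coverage of the 9 genes was 8871 and 9968 ppm in the S. paradoxus parent and 5789 and 6106 ppm from the same alleles in the hybrid. In S. cerevisiae it was 6417 and 5311 ppm in the parent and 6212 and 6511 ppm in the hybrid. Replicate ratios of the 9 genes differed by a median of 0.49 on the log2 scale in parental RPF, and by 0.17 in parental mRNA. The widest gap was that of ERG25 in parental RPF, at -0.39 and -1.39. Over all genes the median gaps were 0.35 in hybrid RPF and 0.33 in parental RPF, against 0.17 and 0.19 in mRNA, and the errors of the fit follow these.

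Between the parents 6 of the 9 genes had lower RPF in S. cerevisiae, where 20.4% of all genes did. ERG28 had 85.8 and 81.4 ppm in S. cerevisiae and 406 and 426 ppm in S. paradoxus, a 4.95-fold difference (log2 -2.31 ± 0.19, adjusted p = 2.5e-08). ERG2 followed at -1.23 ± 0.18, ERG5 at -1.11 ± 0.17, ERG25 at -0.89 ± 0.23, ERG11 at -0.84 ± 0.18 and ERG1 at -0.77 ± 0.15. Without parental RPF replicate 2 the calls of ERG11 (-0.44, adjusted p = 0.16) and ERG25 (-0.39, adjusted p = 0.38) were lost. ERG6 (-0.39 ± 0.18), ERG3 (0.09 ± 0.18) and ERG27 (0.17 ± 0.16) were not called.

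Between the alleles of the hybrid only ERG27 was called in RPF, higher from S. cerevisiae (0.64 ± 0.18, adjusted p = 0.028), where 5.72% of all genes were. Its alleles gave 386 and 383 ppm from S. cerevisiae and 231 and 264 ppm from S. paradoxus, without overlap, but the call was lost without either hybrid RPF replicate (adjusted p = 0.30 and 0.25). ERG3 (0.50 ± 0.20, adjusted p = 0.11) and ERG28 (-0.54 ± 0.21, adjusted p = 0.11) had the signs of their mRNA and did not pass.

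In trans, RPF was lower for S. cerevisiae in 4 of 9 genes, where 6.29% of all genes were called lower. They were ERG28 (-1.77 ± 0.29, adjusted p = 0.00038), ERG5 (-1.31 ± 0.26, adjusted p = 0.0023), ERG2 (-1.12 ± 0.27, adjusted p = 0.0098) and ERG1 (-0.95 ± 0.23, adjusted p = 0.011). The values of the other 5 ran from -0.83 ± 0.27 for ERG11 (adjusted p = 0.056) to -0.41 ± 0.26 for ERG3. The median of the 9 was -0.83, with all 9 below 0, against -0.04 over all genes. Only ERG28 kept its call without each replicate in turn. ERG1 lost it without either hybrid RPF replicate (adjusted p = 0.078 and 0.14), ERG2 without hybrid RPF replicate 2 (-0.93, adjusted p = 0.19) or parental RPF replicate 2 (-0.87, adjusted p = 0.10), and ERG5 without hybrid RPF replicate 2 (-1.25, adjusted p = 0.056).

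Set against its own parent, the RPF of the S. paradoxus copy was lower in the hybrid for 5 genes, where 8.14% of all genes were. ERG1 fell most, from 1966 and 1917 ppm in the parent to 853 and 1012 ppm in the hybrid (-1.06 ± 0.16, adjusted p = 0.00022). ERG2 (-0.77 ± 0.18), ERG5 (-0.72 ± 0.18), ERG25 (-0.71 ± 0.20) and ERG11 (-0.55 ± 0.18) were also called. For all 9 genes both hybrid replicates lay under both parental ones, as for 30.7% of all genes. Without hybrid RPF replicate 2 only ERG1 stayed called. The calls of ERG25 and ERG5 were also lost without hybrid RPF replicate 1 or without parental RPF replicate 2. The ERG11 call was lost whichever RPF replicate was left out. It was also lost with a pseudocount of 0.1, without the filter and with median-of-ratios scaling (adjusted p between 0.053 and 0.060). Of the S. cerevisiae copies ERG28 and ERG5 were higher in the hybrid, where 9.15% of all genes were. ERG28 went from 85.8 and 81.4 ppm to 188 and 227 ppm (1.30 ± 0.26, adjusted p = 0.0013). ERG5 went from 376 and 311 ppm to 519 and 512 ppm (0.59 ± 0.20, adjusted p = 0.041), a call that was lost with median-of-ratios scaling (adjusted p = 0.062) and without either hybrid RPF replicate or parental RPF replicate 2.

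Translational efficiency (TE), the RPF difference minus the mRNA difference, separates ribosome occupancy from mRNA level. No member was called for TE in cis, where 1.41% of all genes were called, or between the parents, where 6.34% were. At an unadjusted p under 0.05 the counts in limma were 0 of 9 in cis and 2 of 9 between the parents, against 15.5% and 20.7% of all genes. Cis values ran from -0.30 ± 0.22 for ERG3 to 0.13 ± 0.19 for ERG1. Parental values ran from -0.48 ± 0.20 for ERG2 (adjusted p = 0.18) to 0.27 ± 0.20 for ERG5. The median parental value of all genes was -0.094 with column totals and 0.032 with median-of-ratios scaling, and 38.5% and 62.3% of calls were higher, so the sign of small parental values depends on the scaling. RPF coverage over mRNA coverage of the same bases was above the median gene for all 9 genes in all 4 combinations of species and background. ERG1 was highest, with log2 values between 0.69 and 1.03 against medians of all genes between -0.80 and -0.67. ERG27 was the lowest of the 9 in all 4, at -0.44 and -0.23 for S. cerevisiae in parent and hybrid, and at -0.42 and -0.036 for S. paradoxus.

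The trans values of oxygen-using and other members covered overlapping ranges. Of the 5 oxygen-using members 4 were called lower in trans mRNA, where 16.8% of all genes were. The median of the 5 was -0.76, with values from -1.56 (ERG5) to -0.25 (ERG3). Of the 4 that do not use oxygen all 4 were lower, likewise with a median of -0.76 and values from -1.61 (ERG28) to -0.64 (ERG6). The heme proteins ERG11 and ERG5 were at -0.84 and -1.56. In cis mRNA 1 of the 5 oxygen-using genes was called, ERG3, and 3 of the other 4 (ERG27, ERG28 and ERG6). Of all genes 38% were called there in either direction. The ERG6 call was lost without hybrid mRNA replicate 2 and with a spread shared by all settings. In S. paradoxus mRNA between hybrid and parent the medians were -0.59 for the oxygen-using and -1.02 for the other genes. Whether these medians or counts differ was not tested, and oxygen in the cultures was not measured.

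Genes that feed or surround the pathway were taken from lists of the mevalonate steps, other post-squalene enzymes, electron donors and heme synthesis, regulators, and sterol esters with lipid desaturation. Of the mevalonate and squalene list 7 of 10 genes were in the table. Between the parents the mRNA of all 7 was called lower for S. cerevisiae, against 27.8% of all genes. MVD1 passed there only narrowly (-0.27 ± 0.11, adjusted p = 0.049). In trans RPF only ERG13 was called lower, against 6.29% of all genes. In trans mRNA 5 of the 7 were called lower, against 16.8% of all genes, with a median trans value of -0.72. The largest trans values were those of ERG13 (-1.47 ± 0.12), the synthase of hydroxymethylglutaryl-CoA, of the isomerase gene IDI1 (-0.98 ± 0.13), of ERG9 (-0.94 ± 0.12), which makes squalene, and of the mevalonate kinase gene ERG12 (-0.72 ± 0.13). The S. paradoxus mRNA of 6 of the 7 was lower in the hybrid than in the parent, where 16.4% of all genes were called lower. Of the other post-squalene genes ERG7, which closes the ring, was lower in trans (-0.91 ± 0.13), and the reductases ERG24 and ERG4 were not called.

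The list of electron donors and heme synthesis held 12 genes and went both ways. In trans mRNA 5 were lower and 3 higher, where 16.8% of all genes were called lower and 19.2% higher. CYB5, the cytochrome that can pass electrons to the ERG3 and ERG25 enzymes, had the largest value of any listed pathway gene at -2.39 ± 0.15 (adjusted p = 6.3e-10). Of the heme genes HEM14 (1.03 ± 0.19), HEM15 (1.01 ± 0.15) and HEM3 (-0.84 ± 0.18) were the next largest. HEM14 and HEM15 act in the last steps of heme synthesis and HEM3 in an early one.

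Of the 6 listed regulators 3 were in the table, while HAP1, ROX1 and MOT3 had no entry there under these names. None of the 3 was called in trans mRNA, where 36% of all genes were called. At an unadjusted p under 0.05 in limma there was 1, against 44.7% of all genes. UPC2 was lower in S. cerevisiae parental mRNA (-0.92 ± 0.14, adjusted p = 1.8e-05) and also in cis (-0.46 ± 0.13, adjusted p = 0.0087). SUT1 was higher from the S. cerevisiae allele in cis (0.62 ± 0.16, adjusted p = 0.0040), and ECM22 was higher between the parents (0.47 ± 0.15). In the last list 4 of 5 genes were in the table. OLE1, the fatty acid desaturase gene, was lower in trans at -1.70 ± 0.13 and the sterol ester synthase gene ARE2 at -1.58 ± 0.14, while the sterol importer gene AUS1 was higher at 0.72 ± 0.17. For OLE1 and ARE2 the S. cerevisiae copy was higher in the hybrid than in the parent (1.50 ± 0.13 and 1.35 ± 0.12). Their S. paradoxus values of -0.20 ± 0.13 and -0.22 ± 0.12 were not called.

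**Figure D5:**
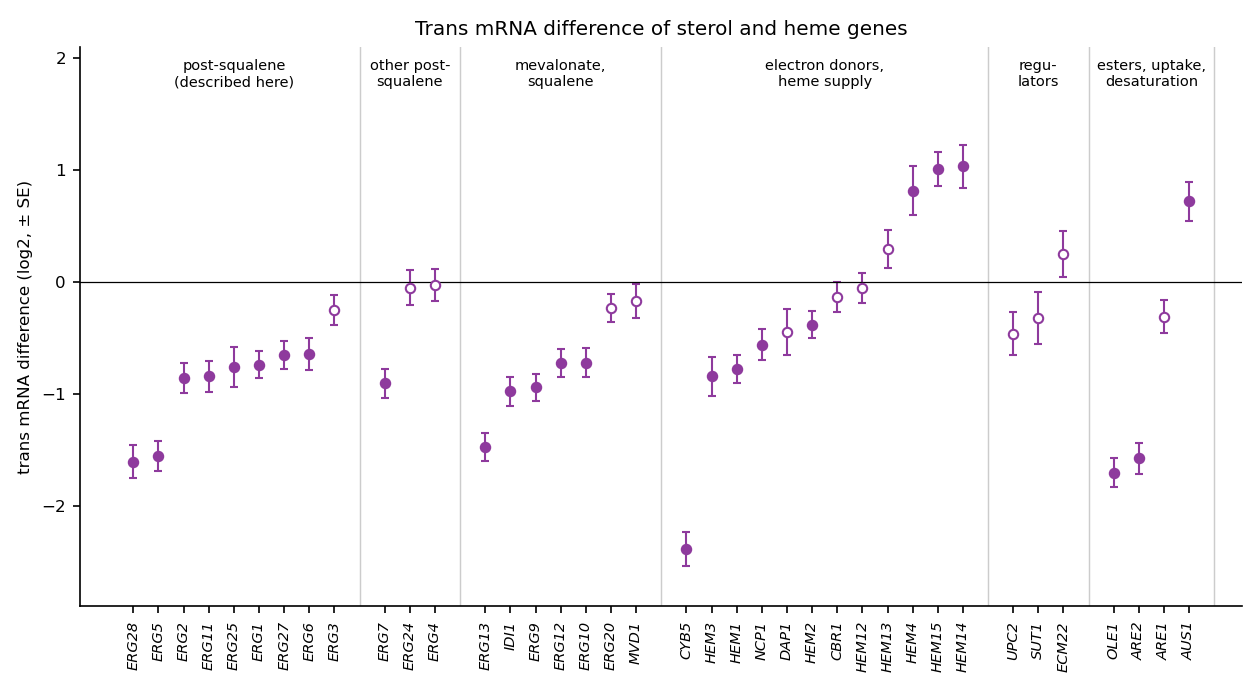
Trans mRNA difference (log2, parental minus hybrid, vertical axis) of the 9 genes and of the listed pathway genes found in the table, with bars of 1 standard error. Filled points passed the test at an adjusted p under 0.05 and open points did not; the members lie between -1.61 and -0.25, and the heme and electron donor genes between -2.39 and 1.03.

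Across the 16 columns 7 of the 9 genes followed their common mean profile, with a Pearson r between 0.63 (ERG6) and 0.95 (ERG2). ERG27 (0.044) and ERG3 (0.14) did not, the same genes that had the largest cis differences in favour of S. cerevisiae. Outside the group, the 5 profiles most like that mean were those of YLR179C (0.91), COX13 (0.89), ARG1 (0.88), ERG9 (0.88) and ERG10 (0.87). The mean profile includes each member itself, which raises the r of members but not that of genes outside the group. These values are descriptions over 16 columns that share libraries and scaling.

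The authors' deposited table holds calls from their own permutation test. In it mRNA in trans was called higher for S. paradoxus in 9 of 9 genes, where 28.2% of all genes were, ERG3 included. In the same authors' deposited table mRNA in cis was higher from S. cerevisiae for ERG27, ERG6, ERG3 and ERG5, as for 28.6% of genes, and higher from S. paradoxus for ERG28, as for 30.3%. For translation in cis the authors' deposited table calls ERG3 alone, with the S. paradoxus allele higher (adjusted p = 0.0051), as for 14.1% of genes. No adjusted p is given there for ERG11, ERG25, ERG6 and ERG5 in translation, in cis or in trans. The same holds for ERG28 in translation in cis, and for ERG11 and ERG25 in mRNA in cis. A missing call for these genes is not a negative test. For translation in trans it calls S. paradoxus higher for ERG1, ERG27 and ERG3, as for 13.8% of genes, and S. cerevisiae higher for ERG28, as for 13.9%. What the translation calls measure is not described here, and no trans TE contrast was fitted to set beside them. The trans RPF value of ERG28 in limma, -1.77, includes its mRNA difference, which was -1.61 in trans. It is therefore a different measure from a translation call and was not set against it. The TE values of ERG28 were 0.08 ± 0.24 in cis and -0.08 ± 0.22 between the parents, neither of them called.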

How the data were processed

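Poly-A mRNA and RPF were measured in 10 samples, grouped by their titles. The values used are signal, the coverage of each gene summed over its unmasked bases by the authors before deposit, with S. paradoxus scaled by 1 factor per replicate, per the deposited readme. CASAVA 1.8.2 and Bowtie 0.12 are named in the submitters' processing notes, and the build the authors used is not given in the sources used here. Beside the coverage the authors deposited their calls from their permutation test, with adjusted p-values that are missing for some genes. Other columns gave unmasked bases, percent divergence, TATA, and ploidy and mating type marks. The planned test depended on the unit. Coverage counts bases and not reads, so the test on the log scale was taken. How many reads stand behind a value is not given, but the authors mark all 9 genes as having at least 100 reads for both orthologs in the samples of each test. Another 24 columns with per-sample values were left aside, and 3 empty lines were skipped.

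Each column was divided by its total, 0.5 ppm was added and the log2 taken, which makes differences of thinly covered genes look smaller. The mean reached 3 ppm for 4544 of 4637 genes, and these were tested. In R 4.3.3, limma 3.58.1 fitted 1 mean per setting to the ratios, with settings weighted by their own spread between replicates, 4 residual degrees of freedom and a trend in the variance. Levels were fitted in the same way within the 8 columns of each species for the hybrid against the parent. Tests were two-sided, and the scripts were tested on simulated data. For parental mRNA there were a library of each parent and a mixed one, and which replicate is the mixed one is not stated. Parental RPF replicate 2 was sequenced in 2 lanes, and how they were combined is not stated. The series text calls the hybrid replicates biological. Nothing says this of the parental RPF replicates, so p-values there cover the spread of these samples alone, and that spread may be technical. Replicate numbers were not used as pairs. Coordinates and sequences are from the R64 reference, where 4401 of 4402 systematic names matched.

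Alternatives were a shared spread, fits within 1 condition or assay, pseudocounts of 0.1 and 2, no filter, median-of-ratios scaling, an offset for unmasked bases, a replicate block, a test against a 1.5-fold difference, leaving out marked genes, and leaving out each replicate. The members and lists were chosen with earlier results of these data known. Of the lists, genes are named where they passed the test, at most the 4 largest per list, in the comparisons described for that list.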

Additional observations from a re-analysis of the deposited data

Results flagged for a closer look

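The species difference itself differed between the parents and the hybrid, by the trans contrast of the limma fit, for 8 genes in mRNA and 4 in RPF. Of all genes 36% in mRNA and 10.9% in RPF were called in either direction, and 16.8% and 6.29% were called lower. In mRNA these log2 differences were -0.74 for ERG1, -0.84 for ERG11, -0.76 for ERG25, -0.65 for ERG27, -1.61 for ERG28, -0.64 for ERG6, -0.86 for ERG2 and -1.56 for ERG5. In RPF they were -0.95 for ERG1, -1.77 for ERG28, -1.12 for ERG2 and -1.31 for ERG5. The limits given above for ERG25 and ERG6 in mRNA, and for ERG1, ERG2 and ERG5 in RPF, apply here too. Settings of 2 replicates were not screened for single stray samples.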

How the results depend on the processing

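Of TE only the lowest and highest members, and of S. cerevisiae RPF between hybrid and parent only the called members, were followed here. The member values followed kept their direction and their side of the test in 1400 cases, lost the call in 90, gained it in 21 and turned sign in 8. Those 8 were values near 0, or with replicates on both sides of it. With median-of-ratios scaling the cis value of ERG11 was 0.0074 in mRNA and 0.0026 in RPF. Leaving out replicates, cis mRNA ran from -0.080 to 0.057 for ERG11 and from -0.25 to 0.028 for ERG25. Likewise cis RPF ran from -0.023 to 0.013 for ERG11, from -0.12 to 0.20 for ERG6 and from -0.30 to 0.081 for ERG2, and parental RPF from -0.20 to 0.38 for ERG3.

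Counts of called members moved as follows. With a spread shared by all settings, 3 were called in cis RPF, 1 for S. cerevisiae mRNA between hybrid and parent, and 8 for S. paradoxus RPF. Over all genes the share called went from 12.1% to 25.9% in cis RPF. It went from 50.5% to 29.4% for S. cerevisiae mRNA and from 12.8% to 20.8% for S. paradoxus RPF. The same spread called 6 in trans mRNA (without ERG25 and ERG6), 7 in parental mRNA and 3 in cis mRNA (both without ERG6), and 8 in S. paradoxus mRNA (without ERG25). Of all genes it called 12.1% in trans mRNA, 38.6% in parental mRNA, 13.2% in cis mRNA and 16.1% in S. paradoxus mRNA. With median-of-ratios scaling 1 was called for S. cerevisiae RPF, where 18.3% of all genes were. Fits within 1 condition called 2 in cis RPF, where 13.3% of all genes were called. Fits within 1 assay called 1 for S. cerevisiae mRNA, where 51.1% were. Against a 1.5-fold difference 0 members passed in cis mRNA, cis RPF, S. cerevisiae mRNA and RPF and S. paradoxus RPF. Of all genes between 2% (S. paradoxus RPF) and 7.99% (S. cerevisiae mRNA) passed in these comparisons. The same test passed 2 in parental mRNA and 2 in trans mRNA (ERG28 and ERG5), 3 in parental RPF, 1 in trans RPF and 2 in S. paradoxus mRNA. Of all genes it passed 15.7% in parental mRNA, 6.34% in trans mRNA, 9.84% in parental RPF, 3.39% in trans RPF and 3.24% in S. paradoxus mRNA. Leaving out each replicate, counts ran from 3 to 4 in cis mRNA, 0 to 1 in cis RPF, 7 to 8 in parental mRNA, 4 to 6 in parental RPF, 7 to 8 in trans mRNA and 1 to 5 in trans RPF. Between hybrid and parent they ran from 1 to 4 and 1 to 2 for S. cerevisiae mRNA and RPF, and from 8 to 9 and 1 to 6 for S. paradoxus. These fits keep the weights of all replicates, and a lone sample is assumed to vary like its setting. Apart from fewer samples or a stricter test, the cause was not tested. Over all genes, 552 instead of 1637 were called in trans mRNA with a shared spread.

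Replicate numbers were not used as pairs in the main fit. Same-numbered deviations had r = 0.18 between parental mRNA and parental RPF, and between -0.054 and 0.019 in the other combinations. With the replicate block 8 members were called in trans mRNA, 8 in parental mRNA, 4 in cis mRNA and 5 in trans RPF. Of all genes 36.4%, 58.8%, 38.5% and 11.8% were called there.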
